A study of Mus musculus with 6 samples.

Results

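The nuclear subunits of respiratory complexes III, IV and V were described in bEnd.3 cells, a mouse endothelial cell line, with and without added mitochondria. Members were the gene rows named with the prefixes Uqcr, Atp5, Cox4, Cox5, Cox6, Cox7 or Cox8, or named Cyc1, that the deposited table lists as protein coding. The rule took 46 of 55401 rows, of which 9 belong to complex III, 19 to complex IV and 18 to complex V. No measured level entered the rule.

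The study asked how endothelial cells respond to mitochondria from osteocytes. Wild-type bEnd.3 cells in high-glucose DMEM with serum received either 100 ul of medium with mitochondria of MLO-Y4, a mouse line with osteocyte features, or that volume of medium alone. RNA was collected after 24 h, and each group, mitochondria and control, has 3 libraries. Each group is 1 immortal cell line, and whether replicates were separate cultures is not labelled, so that the p-values rest on a spread between libraries that may be technical. Both lines are from mouse, so transcripts carried in with the preparation and transcripts of the host cells cannot be told apart. In such bulk libraries, fewer cells of a type and less RNA per cell cannot be told apart either.

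Complex III (ubiquinol-cytochrome c reductase) passes electrons from ubiquinol to cytochrome c and moves protons across the inner mitochondrial membrane. Complex IV (cytochrome c oxidase) passes those electrons to oxygen, and complex V (ATP synthase) lets protons flow back through a rotating c ring to drive ATP synthesis in its F1 head. Each complex joins a few subunits encoded in mitochondrial DNA with many encoded in the nucleus, translated in the cytosol and imported. Several complex IV subunits have a second gene that is used mainly in heart and skeletal muscle, in testis, or, for Cox4i2, in lung and under low oxygen.

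Sequences of 3 sets of members are shown, because counting has to tell near copies apart and because some promoters belong to complex V genes with small p-values. The c subunit of ATP synthase comes from 3 genes whose mature part is the same protein. The last 78 codons and the stop codon of Atp5g1 (chromosome 11, minus strand), Atp5g2 (chromosome 15, minus strand) and Atp5g3 (chromosome 2, minus strand) were compared over 237 bases on GRCm38. Capitals mark the 64 positions at which the 3 genes are not all alike.
Atp5g1: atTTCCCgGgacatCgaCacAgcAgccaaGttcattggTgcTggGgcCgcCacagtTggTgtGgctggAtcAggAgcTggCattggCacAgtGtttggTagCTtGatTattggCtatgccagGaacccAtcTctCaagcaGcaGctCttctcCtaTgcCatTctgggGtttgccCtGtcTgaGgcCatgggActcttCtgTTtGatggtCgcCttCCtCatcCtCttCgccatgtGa
Atp5g2: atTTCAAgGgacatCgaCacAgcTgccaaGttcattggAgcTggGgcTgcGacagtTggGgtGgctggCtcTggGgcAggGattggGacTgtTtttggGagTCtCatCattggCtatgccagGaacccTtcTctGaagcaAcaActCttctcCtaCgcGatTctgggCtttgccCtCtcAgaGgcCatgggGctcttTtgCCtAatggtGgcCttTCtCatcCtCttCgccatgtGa
Atp5g3: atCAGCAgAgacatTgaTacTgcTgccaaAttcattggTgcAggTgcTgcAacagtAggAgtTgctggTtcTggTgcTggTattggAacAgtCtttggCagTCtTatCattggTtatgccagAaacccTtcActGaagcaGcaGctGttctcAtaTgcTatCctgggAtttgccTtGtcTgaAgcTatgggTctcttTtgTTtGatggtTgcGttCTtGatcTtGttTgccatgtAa

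Identity over these bases was 84.8% between Atp5g1 and Atp5g2, 78.5% between Atp5g1 and Atp5g3, and 77.2% between Atp5g2 and Atp5g3. The longest identical run was 21 bases, so these genes differ often along a read. The second set is Cox5b and the row Cox5b-ps, which is as long as its 390-base coding sequence and so holds no intron. Cox5b lies at chr1:36691449-36693681 on the plus strand and Cox5b-ps at chr13:21501029-21501418 on the minus strand (GRCm38). Their coding sequences were 99.2% identical, with 3 differing bases and an identical run of 147 bases. Bases 158 to 277 of both are shown, with 2 of the differing bases in capitals.
Cox5b: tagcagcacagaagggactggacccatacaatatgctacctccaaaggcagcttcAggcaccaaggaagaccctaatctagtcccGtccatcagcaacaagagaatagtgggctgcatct
Cox5b-ps: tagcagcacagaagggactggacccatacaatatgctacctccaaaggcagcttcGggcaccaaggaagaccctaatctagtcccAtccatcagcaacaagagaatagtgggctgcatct

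Reads that lie within the coding sequence and cross none of the 3 differing bases cannot be assigned to one copy. The values of both rows are uncertain for that reason. The third set holds the promoters of Atp5j2, Atp5l and Atp5md, the complex V genes with the smallest p-values without a replicate block in the comparison below. Each is 250 bases before to 50 after the start in RefSeq (GRCm38.p6), and capitals mark matches to an NRF1 motif (GCATGCGC), an ETS motif (CCGGAAG) or a YY1 motif (AAGATGGC), searched on both strands. No marked motifs overlap. The 3 windows lie on minus strands, at chr5:145191492-145191791, chr9:44920693-44920992 and chr19:47090598-47090897.
Atp5j2: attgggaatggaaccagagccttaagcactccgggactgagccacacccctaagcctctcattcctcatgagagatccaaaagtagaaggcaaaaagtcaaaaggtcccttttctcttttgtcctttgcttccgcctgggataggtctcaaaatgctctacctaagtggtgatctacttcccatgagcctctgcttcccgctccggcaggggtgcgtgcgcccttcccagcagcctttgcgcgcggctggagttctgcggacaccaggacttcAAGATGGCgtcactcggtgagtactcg
Atp5l: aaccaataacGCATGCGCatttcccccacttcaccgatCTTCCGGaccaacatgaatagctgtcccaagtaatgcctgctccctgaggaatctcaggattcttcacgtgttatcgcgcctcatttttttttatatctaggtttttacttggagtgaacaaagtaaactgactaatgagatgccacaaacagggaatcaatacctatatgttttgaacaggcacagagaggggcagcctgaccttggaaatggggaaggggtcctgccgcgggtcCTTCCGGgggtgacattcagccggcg
Atp5md: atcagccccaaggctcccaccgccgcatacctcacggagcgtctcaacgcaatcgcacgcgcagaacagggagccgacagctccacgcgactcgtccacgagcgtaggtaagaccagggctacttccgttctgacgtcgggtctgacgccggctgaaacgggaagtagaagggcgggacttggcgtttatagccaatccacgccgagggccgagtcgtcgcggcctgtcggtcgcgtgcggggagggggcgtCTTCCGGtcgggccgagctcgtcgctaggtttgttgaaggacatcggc

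The Atp5j2 window holds 1 YY1 match, the Atp5l window 1 NRF1 match and 2 ETS matches, and the Atp5md window 1 ETS match. RefSeq promoters were found for 33 of the 45 member names, as 36 windows. An ETS match was in 11 of these 36 windows, against 8.86% of 32851 windows in the table. NRF1 matches were in 6 windows, against 2.71% of all, and YY1 matches in 3, against 2.75%. These matches describe letters, not binding sites. Most member windows held C followed by G more often than the median of 7 over all windows, from 2 for Cox8b to 43 for an Atp5j window. The NRF1 and ETS motifs contain CG, and the part of base composition in these shares was not tested.

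The libraries held 65394770 to 73376834 estimated counts, in which 1 sequenced fragment probably stands for about 4 counts. Pearson correlations between libraries were 0.968 to 0.983. Of 12 endothelial markers, 8 were below 1 FPKM (fragments per length of transcript and depth of library) in every library, among them Pecam1 and Cdh5, and Cldn5 was at 0, while Eng, Flt1 and Tie1 were well above it. Markers of pancreatic acinar cells summed to 157 to 259 CPM (counts scaled to library size) in control and 55.0 to 61.0 CPM in mitochondria libraries. Cpb1, Amy2a5 and Cel of these 17 had a mean FPKM under 1 and were not tested. An adjusted p under 0.05 in edgeR was reached by 11. They are among the 21 genes that make up the 0.164% of all tested genes called. The list was chosen with earlier results known, and markers at 0 with mitochondria passed the level filter through the controls alone. That count therefore does not test the list. Most of the sum with mitochondria was Cela1, at 4148, 3962 and 3506 counts, against 4647, 5439 and 3732 in control. Ctrb1, Cela2a, Clps and Cpa1, among others, had a count of 0 in every mitochondria library. Hepatocyte markers summed to 42.6 to 56.9 CPM in control and to 2.04, 40.6 and 35.9 CPM in mitochondria 1, 2 and 3, of which the first stood apart. Osteocyte markers overlapped, at 78.1 to 174 CPM in control and 113 to 136 CPM in mitochondria libraries, with Dmp1 and Mepe at 0. Most of that sum was Gja1, at 5334 to 12330 counts in control and 7150 to 9173 counts in mitochondria libraries. Of the 7 osteocyte markers, 5 were below 1 FPKM in every library. The part of these transcripts in the results below was not tested.

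Most subunits were abundant and differed little between groups. Of the 46 members, 39 reached a mean FPKM of at least 1 and were tested, namely all 9 of complex III, 13 of complex IV and 17 of complex V. The others were the complex IV isoforms Cox4i2, Cox6a2, Cox6b2, Cox7b2, Cox8b and Cox8c and a second row named Atp5o that is listed at 0 in all libraries. Among tested members, mean FPKM ran from 7.40 for Cox7a1 to 392 for Cox8a, with a median of 71.8, against 7.04 over all 12774 tested genes.

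**Figure D1:**
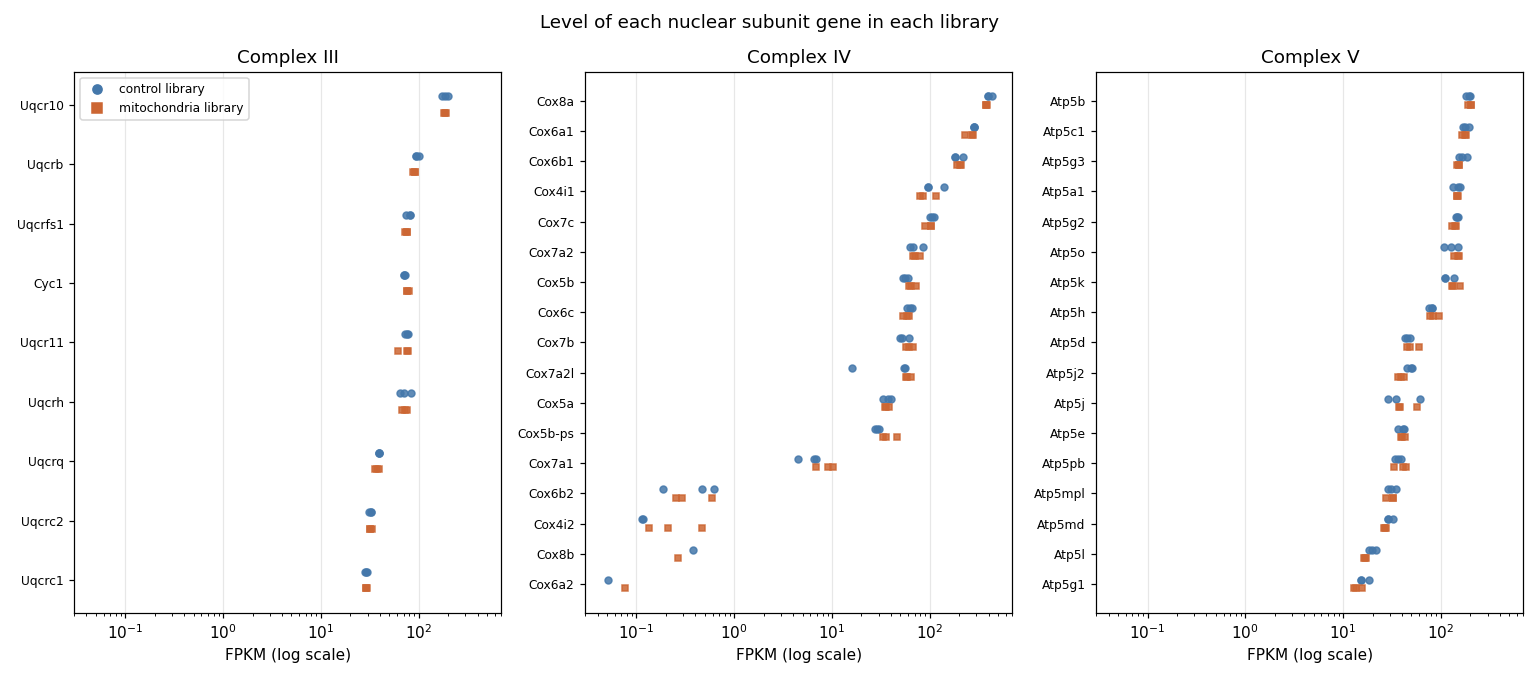
FPKM (log scale) of each member with a count above 0 in each library, by complex, ordered by mean. Control libraries are circles and mitochondria libraries squares, and a library with a count of 0 has no point. Tested members other than Cox7a1 lie between 12.9 and 428 FPKM in every library, Cox7a1 between 4.48 and 10.3, and Cox6b2, Cox4i2, Cox8b and Cox6a2 below 1.

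No member passed an adjusted p of 0.05 between the groups in edgeR's quasi-likelihood test, in which 0.164% of all tested genes passed, 0.0626% as higher and 0.102% as lower with mitochondria. The smallest adjusted p of a member was 0.225. DESeq2 called 2 members, Atp5j2 and Atp5l, both lower with mitochondria, against 2.82% of all tested genes, 1.62% higher and 1.20% lower. At an unadjusted p under 0.05, edgeR had 6 of 39 members (15.4%), close to the 13.0% of all tested genes. Of these 6, Cyc1, Cox5b and Cox5b-ps were higher with mitochondria and Atp5j2, Atp5l and Atp5md lower, 7.69% of the members each way against 6.79% and 6.24% of all tested genes. Cox5b and Cox5b-ps may share reads, so they are not independent members in these counts.

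The fitted fold changes were small and of both signs. With mitochondria, 16 of 39 members were higher (41.0%, against 49.6% of all tested genes) and 23 lower, and the median log2 fold change was -0.02, against -0.0016 over all tested genes. The 95% interval lay within 0.5 of 0 on the log2 scale for 34 of 39 members (87.2%), against 68.5% of all tested genes. All tested genes have a lower median level than the members, and this comparison was not matched for level. Groups did not overlap for 12 members (30.8%), against 21.4% of all tested genes. Of these, 4 were higher with mitochondria (10.3%, against 10.8%) and 8 lower (20.5%, against 10.6%). Both Cox5b and Cox5b-ps, which may share reads, are among the 4. With the replicate number as a block, 12 members (30.8%) had an unadjusted p under 0.05, against 16.9% of all tested genes, and none passed after adjustment.

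**Figure D2:**
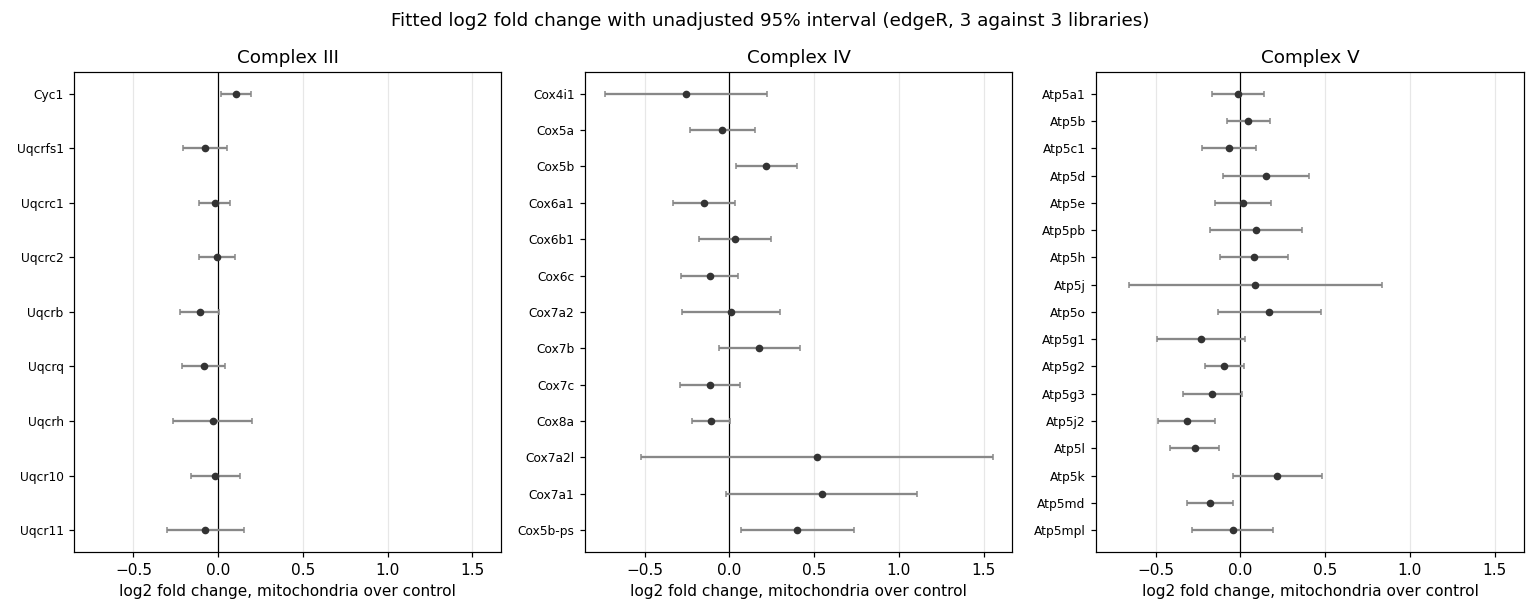
Fitted log2 fold change (mitochondria over control) of each tested member with its unadjusted 95% interval from edgeR, 3 against 3 libraries, by complex. Most points lie near 0, the intervals of Cox7a2l and Atp5j are widest, and Cyc1, Cox5b and Cox5b-ps lie above 0 and Atp5j2, Atp5l and Atp5md below it with intervals that do not reach it.

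Summed over members, complex III gave 681 ± 30.3 FPKM (SD, n = 3) in control and 671 ± 15.7 FPKM in mitochondria libraries. Complex IV gave 1457 ± 57.9 and 1432 ± 29.5 FPKM, and complex V 1469 ± 75.0 and 1482 ± 33.1 FPKM, in the same order. Each difference between groups was smaller than the SD of the controls. As a mean percentage of all FPKM in a library, complex III was 0.207 in control and 0.209 with mitochondria. Complex IV was 0.444 and 0.446, and complex V 0.447 and 0.461, in the same order. The sign of the difference for complexes III and IV thus depended on the unit. The median log2 fold change was -0.033 for complex III, 0.0087 for complex IV and -0.013 for complex V. The difference between complexes was not tested, since genes are not replicates.

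Within libraries the members departed from their own means by little. The median SD of log2 CPM within groups was 0.101 over members and 0.118 over all tested genes, again not matched for level. For Cyc1, 1.28% of tested genes had a smaller SD, while the SDs of Atp5j and Cox7a2l were larger than those of 91.3% and 96.5% of them. The median deviation of all 39 members was highest in control 3, at 0.075 on the log2 scale, and lowest in control 2, at -0.044. The mitochondria libraries lay between them, at -0.013 to 0.013.

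**Figure D3:**
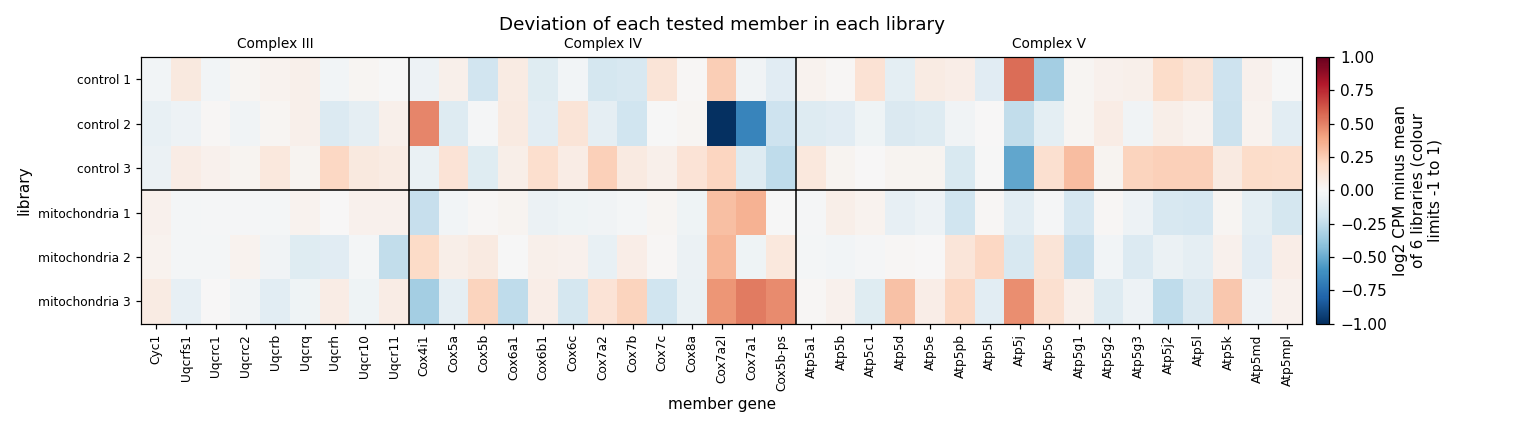
Deviation of log2 CPM from the mean of 6 libraries (colour, limited to -1 to 1) for each tested member (columns, by complex) in each library (rows). Control 2 stands out for Cox7a2l, Cox7a1 and Cox4i1, controls 1 and 3 for Atp5j, in opposite directions, and mitochondria 3 for Atp5j, Cox7a1 and Cox5b-ps, while complex III columns stay pale.

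In complex III the catalytic subunit Cyc1 was the only one of 9 with a positive fold change, although Uqcrc2 turned to 0.0048 on the log2 scale with total-count scaling. Cyc1, the cytochrome c1 that hands electrons to cytochrome c, was at 72.6, 70.4 and 71.4 FPKM in control and 76.7, 76.5 and 79.2 FPKM in mitochondria libraries. All mitochondria libraries were above all controls, by a small step. Its log2 fold change was 0.10 (SE 0.037, edgeR adjusted p = 0.332). Uqcrfs1, the Rieske iron-sulfur protein, ranged from 73.1 to 81.5 FPKM with overlapping groups. The core proteins Uqcrc1 and Uqcrc2, which form the matrix-facing part, were the lowest of the complex per length. Uqcrc1 was at 28.4, 29.2 and 29.8 FPKM in control and 28.9, 28.7 and 29.3 FPKM in mitochondria libraries. Uqcrc2 ranged from 31.2 to 33.2 FPKM, and its log2 interval was -0.11 to 0.10. The groups overlapped for both core proteins.

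All 5 small subunits of complex III had negative fold changes, from -0.11 to -0.016 on the log2 scale, and none passed the test or had an unadjusted p under 0.05. Uqcrb, a small subunit on the matrix side, was at 94.6, 93.5 and 99.6 FPKM in control and 91.4, 90.7 and 86.8 FPKM in mitochondria libraries. Every mitochondria library was below every control for Uqcrb (log2 fold change -0.11, SE 0.047, edgeR adjusted p = 0.400). Uqcrq, the next by p, was at 39.6, 39.5 and 39.1 FPKM in control and 39.4, 35.4 and 37.5 FPKM in mitochondria libraries, and its groups overlapped. Uqcr10, the highest of the complex, was at 187, 174 and 199 FPKM in control and 192, 184 and 182 FPKM in mitochondria libraries, also overlapping. Uqcrh, the hinge protein between cytochrome c1 and cytochrome c, ranged from 65.1 to 82.8 FPKM, and Uqcr11 from 61.8 to 78.0 FPKM. An antisense row, Gm12854, overlaps Uqcrh and had 565 to 972 counts against 6436 to 7520 for Uqcrh. The strand setting of the counting is not given in the sources used here, so reads of overlapping genes on opposite strands may be shared.

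Of 10 ubiquitous complex IV subunits, 4 had positive and 6 negative fold changes, none passed the test, and Cox5b alone had an unadjusted p under 0.05. Cox5b, a zinc-binding matrix subunit, was at 53.0, 60.1 and 55.8 FPKM in control and 61.3, 65.0 and 71.8 FPKM in mitochondria libraries. Its copy Cox5b-ps was at 30.6, 28.6 and 27.7 FPKM in control and 33.3, 36.0 and 46.6 FPKM in mitochondria libraries. Both rows were higher in every mitochondria library, and mitochondria 3 was the highest for both. Fitted log2 fold changes were 0.22 for Cox5b (SE 0.075, edgeR adjusted p = 0.323) and 0.40 for Cox5b-ps (SE 0.138, edgeR adjusted p = 0.321). The 2 rows together gave 83.5 to 88.6 FPKM in control and 94.6 to 118 FPKM in mitochondria libraries. Because of the near-identical coding sequences shown above, the share of each row in that sum is uncertain. A further 10 rows carry the same prefixes without being protein coding, and 8 of them had counts, at most 555. Their highest CPM was in control 3 for 4 rows and in mitochondria 3 for the other 4.

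Cox8a, a small membrane subunit of the oxidase, was the highest member per length and did not pass the test. It was at 392, 394 and 428 FPKM in control and 381, 377 and 377 FPKM in mitochondria libraries, which did not overlap (log2 fold change -0.11, SE 0.046, edgeR adjusted p = 0.393). Cox6a1, the isoform of subunit 6A outside heart and muscle, was at 285, 286 and 281 FPKM in control and 276, 270 and 229 FPKM in mitochondria libraries. The groups did not overlap, and mitochondria 3 was the lowest (log2 fold change -0.15, edgeR adjusted p = 0.463). Cox6b1, which faces the intermembrane space, was at 180, 182 and 221 FPKM in control and 189, 205 and 208 FPKM in mitochondria libraries. Cox7b was at 51.4, 50.1 and 61.2 FPKM in control and 57.0, 60.6 and 67.8 FPKM in mitochondria libraries. The groups overlapped for Cox6b1 and Cox7b, although each same-numbered pair was higher with mitochondria for Cox7b. Cox5a, with Cox4i1 part of an early assembly module, ranged from 33.2 to 40.1 FPKM, Cox6c from 53.6 to 65.2 FPKM and Cox7c from 88.9 to 110 FPKM, all with overlapping groups.

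Cox4i1, the main isoform of the regulatory subunit 4, differed more between replicates than between groups. It was at 96.0, 140 and 95.6 FPKM in control and 85.6, 115 and 79.9 FPKM in mitochondria libraries. Replicate 2 was the highest in both groups, and each mitochondria library was below the control of the same number. On the log2 scale the fold change was -0.26, with an interval of -0.73 to 0.22 and an edgeR adjusted p of 0.625. It was -0.049 without control 2 and -0.43 without mitochondria 2. With the replicate block its unadjusted p was 0.0026 and its adjusted p 0.216. Emc8 overlaps Cox4i1 on the opposite strand and had 2416 to 3412 counts, against 9077 to 17906 for Cox4i1.

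Cox7a2l, a relative of subunit 7A that joins complexes III and IV into supercomplexes, was singled out for 1 low library after its values were seen. It was at 55.3, 16.0 and 54.2 FPKM in control and 57.8, 59.1 and 64.2 FPKM in mitochondria libraries. Control 2 was far below the other 5 libraries, with 1953 counts against 5883 to 6955. Its log2 fold change was 0.52 (SE 0.43, edgeR adjusted p = 0.643) with all libraries and 0.13 without control 2. All mitochondria libraries were above all controls in either case.

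Of the tissue isoforms of complex IV, Cox7a1 alone was expressed above 1 FPKM. Cox7a1, the heart and muscle isoform of subunit 7A, was at 6.94, 4.48 and 6.53 FPKM in control and 9.15, 6.94 and 10.3 FPKM in mitochondria libraries. Mitochondria 1 and 3 were the highest and control 2 the lowest, and the groups touched at the values of control 1 and mitochondria 2. Its log2 fold change was 0.55 (SE 0.23, edgeR adjusted p = 0.395), with a 95% interval of -0.018 to 1.11, the largest fitted change among tested members. Cox7a2, its ubiquitous counterpart, was at 62.9, 66.7 and 84.3 FPKM in control and 69.8, 68.1 and 79.1 FPKM in mitochondria libraries. As a share of the FPKM of the pair, Cox7a1 made up 9.93%, 6.30% and 7.19% in control and 11.6%, 9.25% and 11.6% in mitochondria libraries. The group means were 7.81% ± 1.89 and 10.8% ± 1.34 (SD, n = 3), and the ranges overlapped. Of 10 skeletal muscle and heart markers, 9 were below 1 FPKM in every library and Ckm was at 0, and their sum was 11.7 to 15.1 CPM in control and 11.9 to 13.3 CPM in mitochondria libraries.

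The other tissue isoforms were low. The limit of counting was set at 12 counts or 0.164 to 0.184 CPM per library, which stands for 3 fragments. Cox4i2, the lung and low-oxygen isoform of subunit 4, had 8, 8 and 0 counts in control and 30, 13 and 8 in mitochondria libraries. All controls and 1 mitochondria library were under the limit, so no fold is given, and without a filter on low values its edgeR adjusted p was 0.615. Cox4i2 was 0.067% ± 0.061 of the FPKM of the subunit 4 pair in control and 0.30% ± 0.22 with mitochondria (SD, n = 3). Mitochondria 1 was the highest, at 0.549%, and the mean of that group was 0.174% without it. The testis isoform Cox6b2 had 17, 45 and 53 counts in control and 55, 27 and 22 in mitochondria libraries, with overlapping groups. It was 0.21% ± 0.097 of the FPKM of its pair in control and 0.19% ± 0.10 with mitochondria (SD, n = 3). The muscle isoform Cox6a2 had 0, 0 and 3 counts in control and 0, 4 and 0 in mitochondria libraries, and the muscle isoform Cox8b had 12, 0 and 0, and 8, 0 and 0. The testis isoforms Cox7b2 and Cox8c had a count of 0 in every library. Differences in these 4 isoforms were not detectable at this depth. Of 6 testis markers, 5 were at 0 in all libraries and Prm1 was above 0 in 1.

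**Figure D4:**
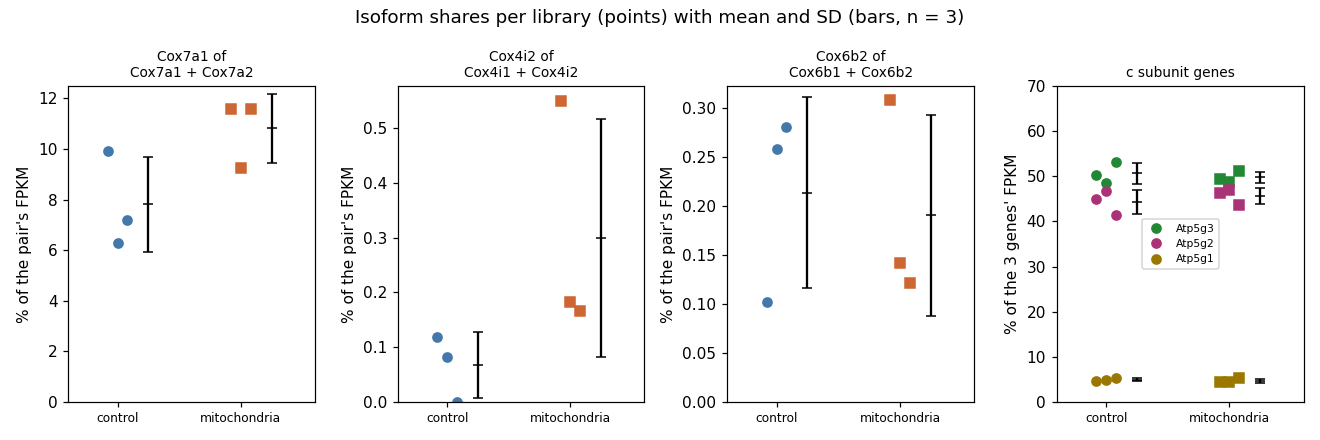
Share of each pair's FPKM taken by Cox7a1, Cox4i2 and Cox6b2, and share of the c subunit FPKM taken by Atp5g1, Atp5g2 and Atp5g3, in percent. Points are libraries, and bars to their right are the mean and SD of 3. Cox7a1 makes up 6.30% to 11.6% of its pair, Cox4i2 and Cox6b2 under 1%, and the c subunit shares differ by little between groups.

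In complex V, the 5 genes of the F1 head had fold changes on both sides of 0. Atp5b, the catalytic beta subunit and highest of the complex, was at 195, 180 and 198 FPKM in control and 203, 191 and 202 FPKM in mitochondria libraries. Atp5a1, the alpha subunit, ranged from 133 to 156 FPKM and Atp5c1, the gamma subunit that turns in the head, from 163 to 194 FPKM. Atp5d, the delta subunit of the rotor, was at 44.6, 43.2 and 48.7 FPKM in control and 45.4, 48.5 and 59.2 FPKM in mitochondria libraries. The groups overlapped for all of these, and Atp5e, the epsilon subunit, ranged from 36.5 to 42.6 FPKM. Atp5d had the second smallest p among complex V members that were higher with mitochondria (log2 fold change 0.15, SE 0.105, edgeR adjusted p = 0.579).

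The 4 tested subunits of the peripheral stalk, which holds the head still against the rotor, all had positive fold changes, from 0.08 to 0.17 on the log2 scale, with overlapping groups, none called and none at an unadjusted p under 0.05. Atp5o, the OSCP subunit at the top of the stalk, was at 107, 126 and 151 FPKM in control and 135, 148 and 152 FPKM in mitochondria libraries. Atp5pb, subunit b, ranged from 32.8 to 43.7 FPKM and Atp5h, subunit d, from 75.8 to 95.2 FPKM. Atp5j, coupling factor 6, was singled out for its spread after its values were seen, with 60.6, 34.6 and 28.7 FPKM in control and 38.5, 37.1 and 57.4 FPKM in mitochondria libraries. Control 1 and mitochondria 3 were high and the other 4 libraries low, in both groups alike. Gabpa overlaps Atp5j on the opposite strand, to an extent not examined, and had 6454 to 7977 counts, against 6601 to 15314 for Atp5j. Atp5j had a log2 fold change of 0.09 (SE 0.31, edgeR adjusted p = 0.926), and it turned negative without control 2, control 3 or mitochondria 3.

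All 3 genes of the c ring had negative fold changes. Atp5g1 was at 15.2, 15.2 and 18.6 FPKM in control and 13.5, 12.9 and 15.7 FPKM in mitochondria libraries, the lowest tested member of the complex. Atp5g2 was at 146, 149 and 144 FPKM in control and 144, 140 and 131 FPKM in mitochondria libraries. Atp5g3 was at 164, 154 and 185 FPKM in control and 154, 145 and 154 FPKM in mitochondria libraries. Each mitochondria library was below the control of the same number for all 3 genes, and in CPM the groups overlapped for Atp5g1 only. Fitted log2 fold changes were -0.23 (SE 0.108), -0.09 (SE 0.048) and -0.17 (SE 0.073) in the order of the gene numbers, with edgeR adjusted p-values of 0.429, 0.463 and 0.406. The c ring genes together gave 331 ± 15.6 FPKM in control and 303 ± 7.13 FPKM with mitochondria (SD, n = 3). Atp5g1 was 4.93% ± 0.36 of that sum in control and 4.62% ± 0.50 in mitochondria libraries. Atp5g2 was 44.4% ± 2.68 and 45.6% ± 1.79 of it, and Atp5g3 50.7% ± 2.37 and 49.8% ± 1.30, in the same order. The sum thus differed by more than the SD of either group, while the shares of the 3 genes overlapped.

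The small membrane subunits Atp5j2 and Atp5l had the smallest p-values of the set without a replicate block, and the fold changes of the 5 membrane subunits had both signs. With the block, Cox4i1 and Atp5g1 had the smallest, at unadjusted p-values of 0.0026 and 0.0039, against 0.0136 for Atp5j2 and 0.0090 for Atp5l. Atp5j2, subunit f of the membrane part, was at 49.2, 44.9 and 51.0 FPKM in control and 39.1, 41.7 and 36.7 FPKM in mitochondria libraries. All mitochondria libraries were below all controls. The log2 fold change was -0.32 (SE 0.070), a fold of 0.803 with a 95% interval of 0.714 to 0.903, and edgeR gave an adjusted p of 0.225 where DESeq2 gave 0.0126. Atp5l, subunit g at the interface between ATP synthase dimers, was at 19.9, 18.6 and 21.6 FPKM in control and 16.3, 17.2 and 16.7 FPKM in mitochondria libraries. These groups did not overlap either. The log2 fold change of Atp5l was -0.27 (SE 0.061), a fold of 0.829 with a 95% interval of 0.749 to 0.918, with an adjusted p of 0.235 in edgeR and 0.0185 in DESeq2. Atp5md, the dimer-associated DAPIT subunit, was at 29.1, 29.0 and 32.3 FPKM in control and 26.6, 26.3 and 27.6 FPKM in mitochondria libraries (log2 fold change -0.18, SE 0.056, edgeR adjusted p = 0.298).

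Atp5k, subunit e and the partner of subunit g at that interface, had a positive fold change. It was at 111, 111 and 137 FPKM in control and 131, 134 and 157 FPKM in mitochondria libraries. Control 3 was above mitochondria 1 and 2, so the groups overlapped, and each mitochondria library was above the control of the same number. Its log2 fold change was 0.22 (SE 0.109, edgeR adjusted p = 0.455). With the replicate block, edgeR gave Atp5k an unadjusted p of 0.0042, smaller than those of Atp5j2 and Atp5l, and an adjusted p of 0.222. Atp5mpl, the 6.8 kDa proteolipid, ranged from 27.5 to 34.9 FPKM with overlapping groups. None of the 5 membrane subunits passed edgeR's adjusted threshold, with or without the replicate block.

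The mitochondrially encoded partners in these complexes all had negative fold changes, and edgeR called none of the 6, of which mt-Cytb alone had an unadjusted p under 0.05. For mt-Cytb, the cytochrome b of complex III, the log2 fold change was -0.30, with an adjusted p of 0.247 in edgeR and 0.0073 in DESeq2. The oxidase core genes mt-Co1, mt-Co2 and mt-Co3 were at -0.045, -0.065 and -0.15, and the ATP synthase genes mt-Atp6 and mt-Atp8 at -0.17 and -0.16, on the same log2 scale. These partners are 1, 3 and 2 genes for complexes III, IV and V, and their difference from the nuclear subunits was not tested. Ndufa4, a complex IV subunit outside the naming rule, had a log2 fold change of 0.17, and Cycs, the cytochrome c that connects complexes III and IV, of -0.02. Neither was called by edgeR or DESeq2.

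Assembly factors were not called by edgeR or DESeq2 either, and 0 of 5, 3 of 24 and 1 of 5 of those for complexes III, IV and V had an unadjusted edgeR p under 0.05, against 13.0% of all tested genes. Of 5 tested complex III factors, 3 were higher and 2 lower, led by Uqcc1 at 0.39 and Bcs1l, which inserts the Rieske protein, at -0.21 on the log2 scale. Of 24 complex IV factors, 9 were higher and 15 lower, with the smallest p-values among the higher ones for Coa6 and Pet100, at log2 fold changes of 0.25 and 0.38, and among the lower ones for Coa5, at -0.14, and Pet117. DESeq2 gave Pet117 no adjusted p. Pet117 had 1125 counts in control 3 and 1 count in each other library, so its fitted log2 fold change of -8.45 rests on that library. Of 5 genes for complex V assembly and inhibition, 3 were higher and 2 lower. Atpaf1, which chaperones the beta subunit, was at 6.22, 5.39 and 4.71 FPKM in control and 2.60, 4.65 and 3.80 FPKM in mitochondria libraries. Its groups did not overlap, and its log2 fold change was -0.58 (edgeR adjusted p = 0.358).

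Among 8 genes linked to oxygen or cytochrome c oxidase, edgeR called none and DESeq2 called 3, where it called 2.82% of all tested genes. At an unadjusted edgeR p under 0.05 there were 4, against 13.0% of all tested genes. The list was chosen with earlier results known, so neither count tests it. Lonp1, the matrix protease that degrades the human counterpart of Cox4i1 under low oxygen, was at 55.5, 52.9 and 56.5 FPKM in control and 63.3, 62.1 and 68.6 FPKM in mitochondria libraries. Its groups did not overlap (log2 fold change 0.22, adjusted p = 0.245 in edgeR and 0.0224 in DESeq2). Egln1, an oxygen-sensing prolyl hydroxylase, had a log2 fold change of 0.45 (DESeq2 adjusted p = 0.0031), and Vegfa, a hypoxia target, of 0.36 (DESeq2 adjusted p = 0.034). Hif1a, the oxygen-regulated factor that Egln1 marks for degradation, was lower, at 66.9, 65.7 and 64.2 FPKM in control and 62.7, 61.3 and 60.1 FPKM in mitochondria libraries. Its groups did not overlap, and its log2 fold change was -0.11 (adjusted p = 0.348 in edgeR and 0.253 in DESeq2). Of 9 nuclear regulators of respiratory genes, 6 were higher and 3 lower, and neither test called one, with 1 at an unadjusted edgeR p under 0.05. Gabpa, the ETS factor of this class, was at 17.4, 16.4 and 17.1 FPKM in control and 15.4, 14.6 and 15.5 FPKM in mitochondria libraries, a log2 fold change of -0.17 (edgeR adjusted p = 0.258). Nrf1 had a log2 fold change of 0.02 and Yy1 of 0.06, and Esrra, at 0.41, had the smallest p of those that were higher.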

How the data were processed

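RNA was measured by sequencing of stranded mRNA libraries, per the labels' protocols. Cutadapt 1.9, HISAT2 2.2.1, StringTie 2.1.6, DESeq2, edgeR and the build GRCm38 are named without roles, per the submitters' processing notes. The annotation release and strand setting are not given in the sources used here. Values of 2 kinds were used. The deposited estimated counts are whole numbers, and 36.6% of those from 1 to 20 are multiples of 4, against 25% if spread evenly. The deposited FPKM values list genes with a count of 0 at 0.0001. Gene names and coordinates came from the deposited table, coding sequences from GENCODE M21 and promoters from RefSeq.

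Counts entered the quasi-likelihood test of edgeR 4.0.16 in R 4.3.3 as deposited, with TMM scaling, for genes with a mean FPKM of at least 1, and p-values were adjusted by Benjamini-Hochberg over all 12774. Standard errors were derived from the F statistic. DESeq2 1.42.0, limma 3.58.1 on log2(FPKM + 1) or log2(FPKM + 0.1), other scalings and filters, counts divided by 4, a replicate block and leaving out each library were alternatives. Both count tests were run on data simulated with the spread that edgeR estimated. DESeq2 recovered more of the changed genes there than edgeR and also made more false calls. Floors cover counting error only.

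Groups share replicate numbers. Deviations of same-numbered libraries correlated at 0.155, 0.101 and 0.231, against -0.216 to 0.084 for other numbers. Same-numbered libraries were thus more alike, but 0.101 is close to 0.084, and these few values do not establish a pairing. The labels state none. The main test has no block, and the fit with a replicate block is an alternative.

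The members and lists were chosen with earlier results of these data known. Every member is named. Values in every library are given for isoform groups, the highest and lowest member per complex, the 2 smallest p in each direction per complex, and members called by edgeR or DESeq2, and other such values are given for genes chosen after seeing them. Of the other lists, mitochondrially encoded subunits and up to 2 genes with the smallest p in each direction are named. Cycs, Vegfa, Nrf1 and Yy1 are named outside that rule.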

Additional observations from a re-analysis of the deposited data

How the results depend on the processing

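Of 585 comparisons of the 39 tested members with 15 alternatives, 554 kept their direction and side of the threshold, 29 turned direction in 12 members, and 2 passed the threshold, Atp5j2 (-0.32) and Atp5l (-0.27) under DESeq2. Members called numbered 2 under DESeq2 and 0 under each other alternative, and the replicate block, whose smallest member adjusted p was 0.216, changed no member's call. All genes called numbered 21, and were 360 under DESeq2, 8 with a mean FPKM of at least 5, 0 with the replicate block (2153 at an unadjusted p under 0.05) and 1 to 27 without 1 library, the lowest without control 1. Without control 3 the number was 12. The cause was not tested.

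Fold changes near 0 turned sign. Uqcrc2 was at 0.0071 and 0.0069 in limma with pseudocounts 0.1 and 1 and at 0.0048 with total-count scaling, and Atp5a1 at 0.0031 in both limma fits. Without 1 library, log2 fold changes ranged from -0.026 to 0.016 for Uqcrc2, -0.11 to 0.068 for Uqcrh, -0.064 to 0.030 for Uqcr10, -0.13 to 0.020 for Uqcr11, -0.11 to 0.020 for Cox5a, -0.014 to 0.14 for Cox6b1, -0.070 to 0.14 for Cox7a2, -0.075 to 0.037 for Atp5a1, -0.044 to 0.063 for Atp5e, -0.0076 to 0.15 for Atp5h, -0.13 to 0.48 for Atp5j and -0.11 to 0.034 for Atp5mpl. The median ranged from -0.073 to -0.0043 in complex III, -0.036 to 0.14 in complex IV and -0.075 to 0.033 in complex V.

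From estimated counts in place of FPKM, which leaves out gene length, the shares in control and mitochondria libraries were 4.60% and 6.44% for Cox7a1, 0.037% and 0.156% for Cox4i2, 0.35% and 0.32% for Cox6b2, 11.6% and 10.9% for Atp5g1, 35.6% and 36.8% for Atp5g2, and 52.3% for Atp5g3 with mitochondria. Depth limits Cox4i2, with 0 to 30 counts per library, Cox8b, with 0 to 12, Cox6a2, with 0 to 4, and Cox7b2 and Cox8c, with 0, against a floor of 12.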
